A study of Homo sapiens with 6 samples.

Results

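The annexins are a family of proteins that bind acidic membrane lipids, mainly phosphatidylserine, when calcium rises, and that link membranes to each other and to the actin cortex. The 10 family members listed here are ANXA1, ANXA2, ANXA3, ANXA4, ANXA5, ANXA6, ANXA7, ANXA8, ANXA10 and ANXA11. Each was taken as the row of the deposited count table that carries its gene symbol, and all 10 were found among the 20851 genes listed. Their levels were compared between 3 libraries of A375RIPK4.KO cells and 3 libraries of A375neg cells. A375 is an established human melanoma cell line. The A375RIPK4.KO cells are clone #1 of that line, in which RIPK4, a serine/threonine kinase, was targeted with CRISPR/Cas9 and a lentiviral guide RNA. The A375neg cells are the negative control line, which the study's methods describe as carrying a nontargeting guide RNA and the labels describe as a GFP control. As the knockout is 1 clone, an effect of RIPK4 loss and a property of that clone cannot be told apart. The labels name GFP for the control group only, so a difference tied to GFP cannot be told apart from these either. The study describes the libraries of a group as independent biological replicates, and the p-values measure the spread between these replicates of 1 control line and 1 clone.

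In the cell, annexins work as calcium-operated membrane organizers. When the plasma membrane tears, calcium flows in and several annexins, ANXA1, ANXA2, ANXA4, ANXA5 and ANXA6 among them, collect at the wound, where they hold edges together or form lattices. Some members act in pairs with small calcium-binding S100 proteins: ANXA2 binds S100A10, and ANXA1 binds S100A11. In melanoma, as in other solid tumours, annexins are studied for their part in adhesion, migration and the repair of membranes damaged during invasion.

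The libraries held 21882863 to 26694140 counts assigned to genes, and 3 counts corresponded to 0.113 to 0.134 CPM, the unit that puts libraries of unequal depth on 1 scale. RIPK4 had 319, 368 and 404 counts in A375neg 1 to 3 and 42, 51 and 61 counts in A375RIPK4.KO 1 to 3. It was 6.45-fold lower in the knockout (log2 fold change -2.69 ± 0.17, SE, adjusted p = 1.02e-05, edgeR quasi-likelihood test). A375RIPK4.KO 2 stood apart from the other knockout libraries, with a chi-square of 23 and 19.3 per gene against A375RIPK4.KO 1 and 3, where the other 4 pairs within a group gave 6.17 to 8.52. The melanocytic marker SOX10 had 8844 to 10056 counts in A375neg and 7448 to 7858 counts in A375RIPK4.KO. Its log2 fold change was -0.20 ± 0.06 (SE), at an adjusted p of 0.0507 with edgeR and 0.0141 with DESeq2. The pigment cell markers MLANA, TYR and DCT are not listed in the table. The summed level of the 6 listed melanocytic markers, most of it SOX10, was 395 to 425 CPM in A375neg and 343 to 359 CPM in A375RIPK4.KO. Of the 6, PMEL had 3 to 22 counts and TYRP1 1 to 8 counts over all libraries. The part of the summed level in the annexin results was not tested. The leukocyte marker PTPRC had 0 to 3 counts, and CD3E is not listed. The 5 listed leukocyte markers summed to 44.2 to 50.5 CPM in A375neg and 48.4 to 51.7 CPM in A375RIPK4.KO, most of it CD68. Within these lists single markers fell: MITF was 1.36-fold lower (adjusted p = 0.0449, edgeR), LYZ 6.15-fold lower (adjusted p = 0.0382) and KRT14 3.35-fold lower (adjusted p = 3.46e-05), named after their values were seen. With 1 library left out MITF passed in 1 of 6 fits, LYZ in 2 and KRT14 in 6. Their part in the annexin results was not tested. The 3 listed keratinocyte markers summed to 71.5 to 75.1 and 53.3 to 66.1 CPM, and the 4 listed fibroblast markers to 4.91 to 6.11 and 4.17 to 5.56 CPM.

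Of the 10 annexins, 8 had enough counts to be tested, while ANXA8 and ANXA10 fell under the filter on low counts. A gene was taken to have passed the test at a Benjamini-Hochberg adjusted p under 0.05 over all 14443 genes tested with edgeR's quasi-likelihood test. By this rule 2 annexins rose in A375RIPK4.KO cells, ANXA2 and ANXA3, and 2 fell, ANXA6 and ANXA4. Over all genes tested, 8.4% rose and 8.24% fell. With a fold change of at least 1.5 in addition, ANXA3 was higher and ANXA6 lower, where 4.39% of all genes tested were higher and 4.65% lower. The other 4 annexins tested, ANXA1, ANXA5, ANXA7 and ANXA11, did not pass. The median log2 fold change of the 8 annexins was 0.0036, beside -0.0047 for all genes tested, and the median of its absolute value was 0.21 beside 0.18. The libraries of the groups did not overlap in normalized count for 4 of the 8, and for 36.5% of all genes tested.

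The regions just before the transcription start of the 4 annexins that passed the test are shown first, since these are the members whose transcript level moved. Each run is 250 bases long, ends at the base before the start, and is read 5′ to 3′ on the strand of the gene, with the sequence from RefSeq (GRCh38.p14). Capitals mark matches to 4 short motifs on either strand: the AP-1 site TGANTCA, the E-box CACGTG, the GC box GGGCGG and the TATA box TATAAA. Matches to the GC box can overlap each other. Of 35116 windows of this length before RefSeq starts, 6.57% hold the AP-1 site, 6.34% the E-box, 42.6% the GC box and 10.7% the TATA box. The ANXA6 window is chr5:151157780-151158029 on the minus strand, the ANXA2 window chr15:60397987-60398236 on the minus strand, the ANXA3 window chr4:78551520-78551769 on the plus strand, and the ANXA4 window chr2:69741884-69742133 on the plus strand. RefSeq gives ANXA6 and ANXA4 a further start each, and the start nearest the exon in the deposited table was used. The motifs found depend on this choice. The window of the further ANXA6 start holds none of the 4 motifs. That of the further ANXA4 start holds 5 GC boxes and no E-box.
ANXA6: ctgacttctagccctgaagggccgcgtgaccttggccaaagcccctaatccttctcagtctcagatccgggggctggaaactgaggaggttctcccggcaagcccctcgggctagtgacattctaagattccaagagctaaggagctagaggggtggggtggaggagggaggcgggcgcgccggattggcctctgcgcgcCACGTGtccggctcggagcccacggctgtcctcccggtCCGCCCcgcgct
ANXA4: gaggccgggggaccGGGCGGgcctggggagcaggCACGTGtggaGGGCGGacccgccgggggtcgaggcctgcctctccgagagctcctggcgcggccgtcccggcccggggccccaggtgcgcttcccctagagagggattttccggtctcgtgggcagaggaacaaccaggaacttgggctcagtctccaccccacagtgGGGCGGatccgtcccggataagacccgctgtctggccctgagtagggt
ANXA2: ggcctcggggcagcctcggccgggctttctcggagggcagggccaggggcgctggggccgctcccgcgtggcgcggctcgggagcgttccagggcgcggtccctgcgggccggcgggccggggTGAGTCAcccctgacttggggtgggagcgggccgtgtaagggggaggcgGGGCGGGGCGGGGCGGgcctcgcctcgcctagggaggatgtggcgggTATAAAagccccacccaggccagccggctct
ANXA3: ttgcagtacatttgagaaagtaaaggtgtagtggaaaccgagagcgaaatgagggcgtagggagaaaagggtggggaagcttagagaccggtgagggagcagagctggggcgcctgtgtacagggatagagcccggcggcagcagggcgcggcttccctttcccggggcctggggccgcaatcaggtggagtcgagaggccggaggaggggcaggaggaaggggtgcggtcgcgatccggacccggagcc

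The ANXA6 window holds an E-box 50 bases before the start and a GC box 12 bases before it. The ANXA4 window holds 1 E-box and 3 GC boxes. The ANXA2 window has an AP-1 site 127 bases before the start and a TATA box at 31 bases, which neither of these windows holds. It also has 3 GC boxes, in a row. The ANXA3 window holds none of the 4 motifs. A match describes the letters in the window and not a bound site. Counts of CpG in these windows ranged from 18 in ANXA3 to 28 in ANXA2, whereas the windows of ANXA1 and ANXA10 had 0, as low as any window searched. ANXA1 and ANXA10 each carry a TATA box, 31 and 29 bases before the start. The ANXA11 window at the start used holds a TATA box at 61 bases.  ANXA8 has no entry in the sequence table.

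ANXA6 showed the largest fall of the annexins tested. This annexin differs from the others in having a duplicated core, which lets 1 molecule bridge membranes, and it is known to draw a GTPase-activating protein of Ras, RASA1, and protein kinase C alpha to the membrane. It lies on chromosome 5 between 151100706 and 151157779 (GRCh38). ANXA6 had 3045, 3177 and 3230 counts in A375neg 1 to 3 and 1289, 1675 and 1514 counts in A375RIPK4.KO 1 to 3. All 3 knockout libraries lay below all 3 control libraries with a wide gap. Normalized to library size, the level was 3011 ± 73.4 (SD, n = 3) in A375neg and 1564 ± 172 (SD, n = 3) in A375RIPK4.KO. The log2 fold change was -0.94 ± 0.08 (SE), or 1.93-fold lower, with an adjusted p of 7.75e-05 (edgeR). With each library left out in turn ANXA6 passed in 6 of 6 fits, at -0.87 to -1.03, and without A375RIPK4.KO 2 the change was -1.03.

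ANXA4, which self-associates on membranes and stiffens them, also fell, by less. It lies on chromosome 2 between 69643808 and 69827112. Its counts were 607, 703 and 623 in A375neg 1 to 3 and 437, 503 and 455 in A375RIPK4.KO 1 to 3, so the groups did not overlap. The normalized level was 615 ± 29.4 (SD, n = 3) against 488 ± 33.1 (SD, n = 3). The log2 fold change was -0.33 ± 0.09 (SE), or 1.26-fold lower, with an adjusted p of 0.0273 (edgeR). This call held without A375RIPK4.KO 2, at an adjusted p of 0.0108. It was lost when any of the other 5 libraries was left out: the adjusted p was 0.0780, 0.125 and 0.0607 without A375neg 1, 2 and 3, and 0.0735 and 0.113 without A375RIPK4.KO 1 and 3. The genes AAK1 and AC092431.1 overlap ANXA4 on the opposite strand. The libraries were strand-specific, but whether the counting used strand is not given in the sources used here.

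ANXA2 was the most abundant annexin by counts and rose in the knockout. It is the subunit that pairs with S100A10 at the inner face of the plasma membrane and, on the outer face, takes part in turning plasminogen into plasmin. ANXA2 lies on chromosome 15 between 60347151 and 60397986, where AC087385.1 overlaps it on the opposite strand. It had 24178, 26290 and 24820 counts in A375neg 1 to 3 and 27281, 34962 and 31972 counts in A375RIPK4.KO 1 to 3. Every knockout library lay above every control library, the highest being A375RIPK4.KO 2. The normalized level was 23972 ± 388 (SD, n = 3) in A375neg and 32910.2 ± 3367 (SD, n = 3) in A375RIPK4.KO. ANXA2 was 1.37-fold higher (log2 fold change 0.46 ± 0.08, SE, adjusted p = 0.00401, edgeR). It passed in 6 of 6 fits with a library left out, at 0.38 to 0.53, and the change was 0.38 without A375RIPK4.KO 2.

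ANXA2 has processed copies elsewhere in the genome, and their counts bear on how firmly its own can be read. The copy ANXA2P2 on chromosome 9 is 98.4% identical to ANXA2 over 1020 bases, with 16 differing bases. Of its windows of 150 bases, the length of 1 read, 13.2% occur letter for letter in ANXA2, so that some reads cannot be placed between them. A stretch of 60 bases where the genes can be told apart is given from the GENCODE 29 transcripts, bases 161 to 220 of ANXA2P2 and 321 to 380 of ANXA2, with the 5 differing bases in capitals.
ANXA2P2: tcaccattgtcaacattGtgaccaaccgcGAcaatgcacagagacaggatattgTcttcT
ANXA2: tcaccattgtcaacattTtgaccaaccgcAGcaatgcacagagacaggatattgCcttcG

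ANXA2P2 had 1127, 1282 and 1214 counts in A375neg and 1272, 1572 and 1749 counts in A375RIPK4.KO. Its own row held 4.5% to 5.47% as many counts as the ANXA2 row in the 6 libraries. Its log2 fold change was 0.47 ± 0.09 (SE, adjusted p = 0.00656, edgeR), close in size to that of ANXA2. Whether its counts come from its own transcript or from ANXA2 reads was not tested. Summed with its copies, ANXA2 kept a log2 fold change of 0.46. The second copy listed, ANXA2P1, is 93.8% identical and shares no window of read length with ANXA2. It had 8, 6 and 3 counts in A375neg and 5, 11 and 16 counts in A375RIPK4.KO and was not tested.

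ANXA3 was rare in these cells and had the largest relative rise of the annexins tested. It lies on chromosome 4 between 78551770 and 78610447. ANXA3 had 32, 47 and 24 counts in A375neg 1 to 3 and 59, 72 and 62 counts in A375RIPK4.KO 1 to 3. The groups did not overlap, and A375neg 2 was the highest control library. The normalized level was 32.7 ± 10.3 (SD, n = 3) against 67.5 ± 6.68 (SD, n = 3). The log2 fold change was 1.04 ± 0.28 (SE), or 2.06-fold higher, and its 95% interval ran from 1.34-fold to 3.18-fold. The adjusted p was 0.0317 (edgeR). The call held without A375neg 2, at 0.0291, and was lost without any other library, with an adjusted p of 0.0916 and 0.0941 without A375neg 1 and 3 and of 0.0570, 0.0544 and 0.0751 without A375RIPK4.KO 1, 2 and 3. ANXA3 did not reach a mean of 50 counts, so that a test restricted to genes above that mean did not include it.

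**Figure D1:**
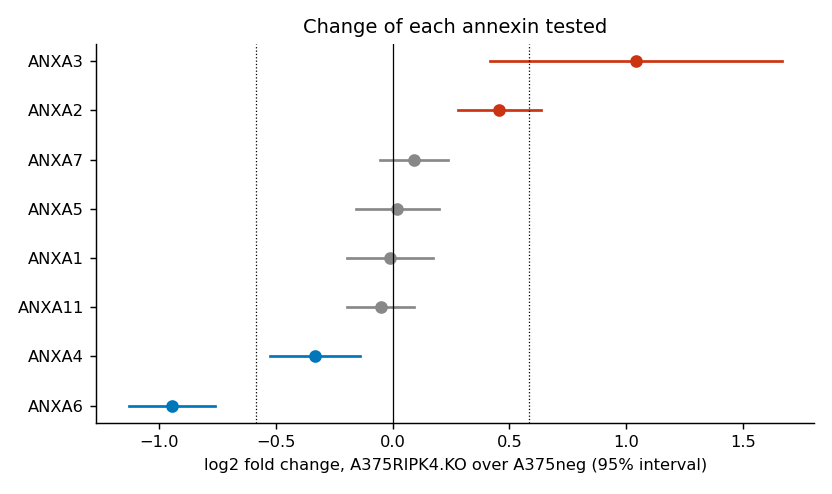
Log2 fold change of each of the 8 annexins tested, A375RIPK4.KO over A375neg, with 95% intervals from edgeR. Red and blue points passed the test as higher and lower, grey points did not, and dotted lines mark 1.5-fold. ANXA6 at -0.94 lies wholly beyond the dotted line, while the interval of ANXA3 is the widest.

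The 4 annexins that did not pass the test had narrow intervals around 0. ANXA1, which carries the anti-inflammatory action of glucocorticoids and is a ligand of formyl peptide receptors, had 23056, 24839 and 24613 counts in A375neg and 18700, 24250 and 22647 counts in A375RIPK4.KO. Its log2 fold change was -0.01 with a 95% interval of -0.19 to 0.17 (adjusted p = 0.942, edgeR). The control libraries lay close together, while A375RIPK4.KO 1 was low and A375RIPK4.KO 2 high after normalization, with an SD of 226 in A375neg and 2439 in A375RIPK4.KO. ANXA5, the annexin used as a probe for phosphatidylserine on dying cells, had 12390, 13829 and 12194 counts in A375neg and 10639, 13122 and 11672 counts in A375RIPK4.KO. Its log2 fold change was 0.02 with an interval of -0.16 to 0.20 (adjusted p = 0.90). A change of ANXA1 or ANXA5 of 1.5-fold in either direction lies outside these intervals.

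ANXA7, also called synexin and known for joining secretory granules, had 1827, 2096 and 1854 counts in A375neg and 1706, 1949 and 1948 counts in A375RIPK4.KO. Its log2 fold change was 0.09 with a 95% interval of -0.06 to 0.24 (adjusted p = 0.393, edgeR). The gene AL512656.1 overlaps it on the opposite strand. ANXA11, which has a long disordered tail that binds the calcium sensor PDCD6 and tethers RNA granules to lysosomes, had 4032, 4415 and 4272 counts in A375neg and 3321, 3968 and 3892 counts in A375RIPK4.KO. Its log2 fold change was -0.05 with an interval of -0.20 to 0.09 (adjusted p = 0.637). The knockout libraries of both genes overlapped the control libraries after normalization.

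ANXA8 and ANXA10 were near the limit of detection. ANXA8 had 14, 7 and 10 counts in A375neg and 8, 7 and 13 counts in A375RIPK4.KO, with no separation of the groups. Its near copy ANXA8L1 is 99.4% identical, and 53.8% of the read-length windows of ANXA8L1 occur in ANXA8, so that neither count can be assigned firmly. ANXA8L1 had 1, 2 and 5 counts and then 4, 4 and 3. ANXA10, an annexin of gastric epithelium, had 19, 9 and 9 counts in A375neg and 6, 2 and 3 counts in A375RIPK4.KO. The gene AC116634.1 overlaps it on the opposite strand. All 3 knockout libraries were lower, but with no filter on low counts the difference did not pass the test (log2 fold change -1.59 ± 0.66, SE, adjusted p = 0.168, edgeR). The size of change that could be detected in ANXA8 and ANXA10 was not tested.

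The table lists 2 more rows with an annexin name that are no part of the 10. ANXA9 had 8, 24 and 28 counts in A375neg and 22, 26 and 20 counts in A375RIPK4.KO, with a log2 fold change of 0.33 ± 0.43 (SE, adjusted p = 0.661, edgeR). ANXA2R, named as a receptor of ANXA2, had 32, 15 and 18 counts against 11, 9 and 9, with a log2 fold change of -1.03 ± 0.44 (SE, adjusted p = 0.151). ANXA13 and ANXA2P3 are not listed in the table.

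**Figure D2:**
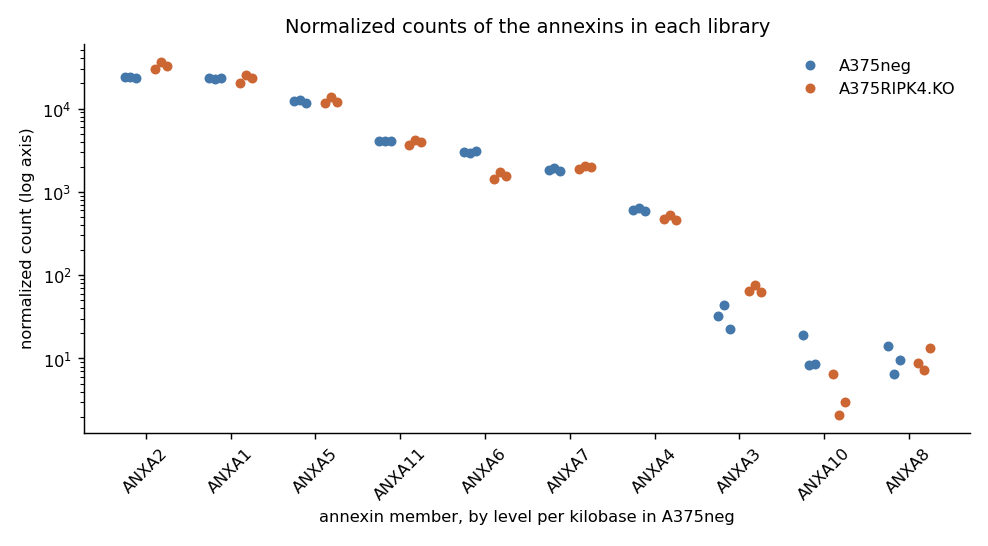
Normalized counts (raw counts over the TMM-scaled library size relative to the mean, log axis) of the 10 annexins in each of the 6 libraries, 1 point per library, ordered by level per kilobase in A375neg. ANXA2 had the highest means, 23972 in A375neg and 32910.2 in A375RIPK4.KO, ANXA6 dropped from 3011 to 1564, and ANXA8 and ANXA10 had at most 19 raw counts.

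Levels of different annexins were compared per kilobase of transcript, as CPM per kb. In A375neg the order of the mean levels was ANXA2 at 680 ± 11.01, ANXA1 at 623 ± 6.09, ANXA5 at 283 ± 14.02, ANXA11 at 65.1 ± 0.29, ANXA6 at 47.3 ± 1.15, ANXA7 at 30.5 ± 1.45, ANXA4 at 8.95 ± 0.43, ANXA3 at 0.80 ± 0.25, ANXA10 at 0.34 ± 0.18 and ANXA8 at 0.21 ± 0.08 CPM per kb (SD, n = 3). Each neighbour in this order was separate in all 3 control libraries except ANXA10 and ANXA8, whose ranges overlapped. In A375RIPK4.KO the levels were ANXA2 at 934 ± 95.6, ANXA1 at 618 ± 65.8, ANXA5 at 286 ± 26.4, ANXA11 at 62.8 ± 4.16, ANXA7 at 32.5 ± 1.43, ANXA6 at 24.6 ± 2.70, ANXA4 at 7.10 ± 0.48, ANXA3 at 1.66 ± 0.16, ANXA8 at 0.20 ± 0.06 and ANXA10 at 0.11 ± 0.07 CPM per kb. ANXA6 and ANXA7 changed places: ANXA6 was above ANXA7 in 3 of 3 control libraries and in 0 of 3 knockout libraries. The order depends on the length assigned. With the longest coding transcript as the length, ANXA11 had rank 6 in both groups, below ANXA6 and ANXA7. With the union of all exons of a gene as its length, ANXA1 came first, ANXA5 second and ANXA2 next in both groups, and ANXA7 lay above ANXA6 in both groups.

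Summed over the 10 members, the annexin level was 1748, 1753 and 1716 CPM per kb in A375neg 1 to 3 and 1787, 2173 and 1942 CPM per kb in A375RIPK4.KO 1 to 3. The knockout libraries were all higher, on average 1.13-fold, with a two-sided exact permutation p of 0.1, the smallest that 3 against 3 libraries allow. A375RIPK4.KO 2 was the highest, and without it the difference on the log2 scale dropped from 0.18 to 0.10. With the union of all exons as the length the difference was 0.08 with a p of 0.5, and with no scaling by length it was 0.15 with a p of 0.2, so the groups then overlapped. As a part of all counts, the annexins took 0.283%, 0.283% and 0.277% in A375neg and 0.290%, 0.328% and 0.309% in A375RIPK4.KO.

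The makeup of the family within each library does not depend on library size. ANXA2 made up 39.3%, 39.2% and 38.9% of the summed level in A375neg and 47.4%, 47.7% and 47.4% in A375RIPK4.KO. ANXA1 made up 35.6%, 35.2% and 36.7% and then 30.9%, 31.4% and 31.9%. ANXA5 made up 16.4%, 16.8% and 15.6% and then 15.0%, 14.6% and 14.1%. ANXA6 went from 2.74%, 2.62% and 2.80% to 1.24%, 1.26% and 1.24%. The shares of ANXA1, ANXA5 and ANXA11 were lower in all 3 knockout libraries although their levels overlapped between the groups. Shares add up to a whole, so a larger share of ANXA2 leaves less for the rest. The sizes, and the separation of the ANXA5 share, depend on the length used. With the union of all exons ANXA2 made up 20.1% on average in A375neg and 26.0% in A375RIPK4.KO, and ANXA1 37.4% and 35.0%. The share of ANXA7, by contrast, overlapped between the groups. For each of ANXA1, ANXA2, ANXA3, ANXA4, ANXA5, ANXA6, ANXA10 and ANXA11 the two-sided exact permutation p was 0.1, the smallest possible, and for ANXA7 and ANXA8 it was 0.2 and 0.6. With the union of all exons the permutation p for the ANXA5 share was 0.2, so the groups then overlapped, and for ANXA7 it was 0.9.

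Ratios of raw counts within a library need no normalization, and their change between groups does not depend on the lengths. ANXA2 had 1.05, 1.06 and 1.01 counts per ANXA1 count in A375neg and 1.46, 1.44 and 1.41 in A375RIPK4.KO, or 1.04 ± 0.03 against 1.44 ± 0.02 (SD, n = 3). The ratio of ANXA6 to ANXA5 was 0.246, 0.230 and 0.265 and then 0.121, 0.128 and 0.130, a 1.96-fold difference. The ratio of ANXA6 to ANXA2 was 0.126 ± 0.005 against 0.0475 ± 0.0004 (SD, n = 3), 2.65-fold lower in the knockout. A375RIPK4.KO 2, which stood apart in level, lay with the other knockout libraries in these 3 ratios. Each ratio was separated between the groups, with a two-sided exact permutation p of 0.1. The ratios were chosen after the members' values had been seen.

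**Figure D3:**
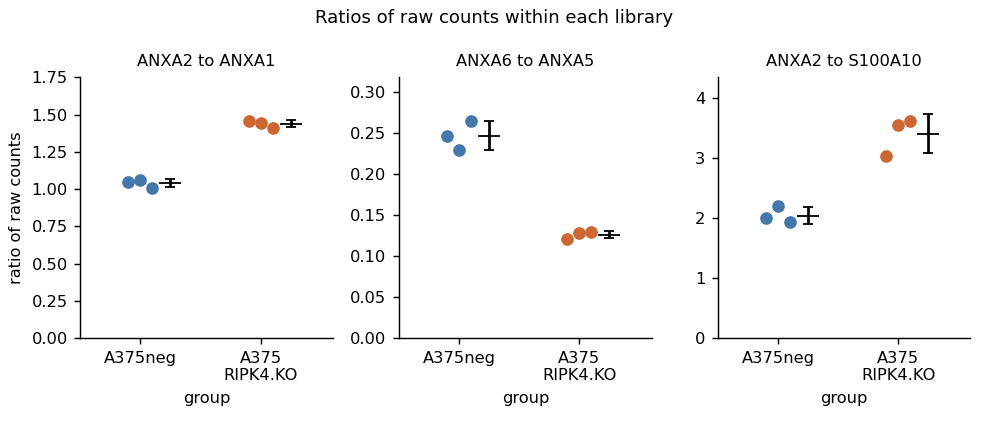
Ratios of raw counts in each library for ANXA2 to ANXA1, ANXA6 to ANXA5 and ANXA2 to S100A10, with the mean and SD of each group in black. In each panel the 3 knockout libraries lie apart from the 3 control libraries: 1.44 against 1.04, 0.126 against 0.247 and 3.41 against 2.04.

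The 4 calls rested on the libraries to different degrees. ANXA6 and ANXA2 passed whichever library was left out. ANXA4 and ANXA3 passed in 1 of 6 such fits each, while the direction was the same in all 6. Over all genes, the number that passed also dropped with 5 libraries, from 2403 to between 1526 and 2129 except without A375RIPK4.KO 2, where it was 2952.

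**Figure D4:**
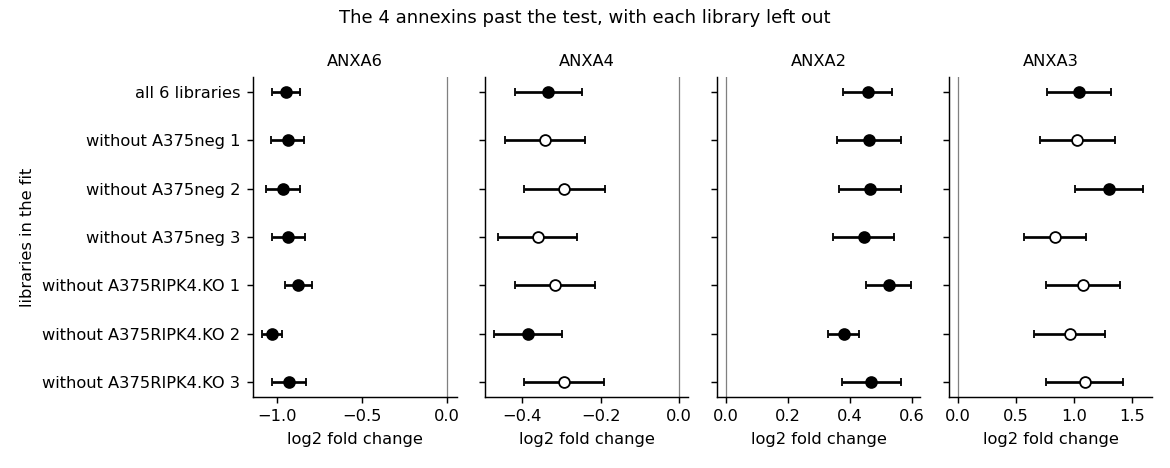
Log2 fold change with its SE (edgeR) of the 4 annexins past the test, with all 6 libraries and with each left out; each panel has its own horizontal scale. Filled points have an adjusted p under 0.05. ANXA6 and ANXA2 are filled throughout, while ANXA4 and ANXA3 are filled with all libraries and in 1 of the 6 other fits.

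The S100 genes encode small calcium-binding proteins, some of which are partners of annexins, and the list was not limited to those. Of 19 listed, 14 are in the table and 12 were tested, of which 0 rose and 9 fell. Of all genes tested, 8.24% fell. The median log2 fold change of the 12 was -0.48, beside -0.0047 over all genes tested. With DESeq2, S100A2 rose (adjusted p = 0.0314), which it did not with edgeR (adjusted p = 0.0759). At an unadjusted p under 0.05 edgeR gave 10 of the 12, beside 4333 of all 14443 genes tested. With 1 library left out the number that passed ranged from 3 to 8, beside 10.29% to 19.77% of all genes tested. It was 4 without A375neg 1, 3 without A375neg 3, 5 without A375RIPK4.KO 1 and 4 without A375RIPK4.KO 3. In the same order, 10.66%, 11.12%, 14.36% and 11.61% of all genes tested passed.

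S100A10, the partner of ANXA2, moved against it. It had 12116, 11966 and 12828 counts in A375neg and 8977, 9834 and 8829 counts in A375RIPK4.KO. The groups did not overlap, and the log2 fold change was -0.28 ± 0.07 (SE), or 1.22-fold lower, with an adjusted p of 0.0286 (edgeR). That call was lost without A375neg 1 or 3 or A375RIPK4.KO 1 or 3, with an adjusted p of 0.121, 0.111, 0.0541 and 0.111. ANXA2 had 2.00, 2.20 and 1.94 counts per S100A10 count in A375neg and 3.04, 3.56 and 3.62 in A375RIPK4.KO, a 1.67-fold difference.

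S100A11, the partner of ANXA1, had 6186, 6412 and 6357 counts in A375neg and 4153, 4578 and 4047 counts in A375RIPK4.KO. It was 1.35-fold lower (log2 fold change -0.43 ± 0.07, SE, adjusted p = 0.00259, edgeR) and passed in 6 of 6 fits with a library left out. S100A6, which binds several annexins, had 19876, 19221 and 20789 counts against 11001, 15566 and 12083. It was 1.41-fold lower (log2 fold change -0.50 ± 0.12, SE, adjusted p = 0.0172), and the adjusted p was 0.0760, 0.0698 and 0.0690 without A375neg 1, A375neg 3 or A375RIPK4.KO 3.

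Among the less abundant S100 genes, S100A5 fell the most, from 27, 23 and 48 counts to 3, 2 and 4 (log2 fold change -3.26 ± 0.49, SE, adjusted p = 0.00200, edgeR). S100P had 24, 28 and 31 counts in A375neg and 0, 7 and 6 counts in A375RIPK4.KO (log2 fold change -2.51 ± 0.63, SE, adjusted p = 0.0258). S100B, a marker of the melanocytic lineage, had 83, 117 and 160 counts against 55, 57 and 64 (log2 fold change -0.89 ± 0.24, SE, adjusted p = 0.0361). S100A1 had 58, 51 and 50 counts against 23, 25 and 32 (log2 fold change -0.86 ± 0.25, SE, adjusted p = 0.0450). S100A5 passed in 6 of 6 fits with a library left out and S100A1 in 0. S100P did not pass without any 1 of the A375neg libraries or A375RIPK4.KO 3, at an adjusted p of up to 0.0871, and S100B did not pass without A375neg 2, A375neg 3, A375RIPK4.KO 1 or A375RIPK4.KO 3, at up to 0.126. S100A1 also missed the threshold with DESeq2, at an adjusted p of 0.108. The remaining S100 genes that fell, named after their values were seen, were S100A4 (log2 fold change -0.72 ± 0.12, SE) and S100A13 (-0.46 ± 0.11, SE). S100A4 passed in 6 of 6 fits with a library left out. S100A13 passed in 2 of 6, without A375neg 2 or A375RIPK4.KO 2, and otherwise had an adjusted p of up to 0.0814. S100A3 and S100A16 did not pass in either direction.

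**Figure D5:**
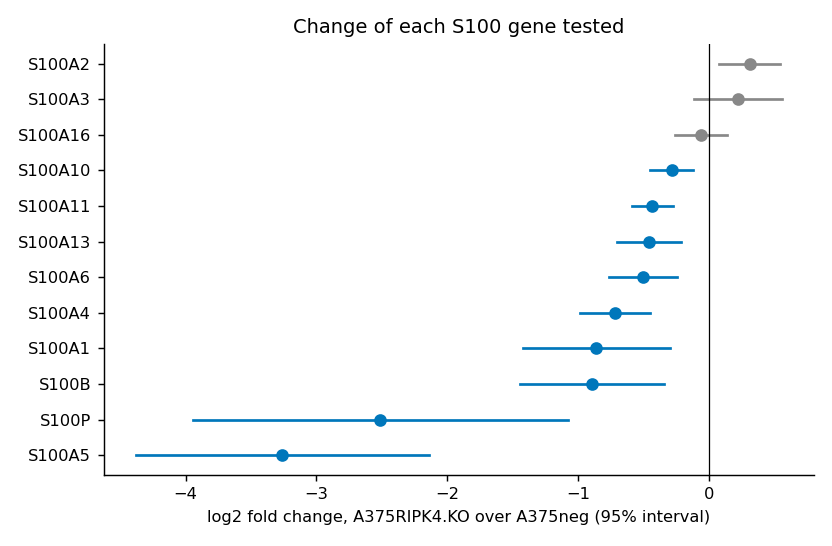
Log2 fold change of each of the 12 S100 genes tested, A375RIPK4.KO over A375neg, with 95% intervals from edgeR. Blue points passed the test as lower and grey points did not pass; 9 of the 12 are blue, from S100A5 at -3.26 to S100A10 at -0.28.

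Genes of membrane repair include the sensors and the ESCRT proteins that close a wound. Of 29 listed, 25 were tested, of which 0 rose and 4 fell, beside 8.4% higher and 8.24% lower over all genes tested, with a median log2 fold change of -0.05. DYSF, the calcium sensor of repair in muscle, fell from 70, 74 and 52 counts to 8, 6 and 10, a 7.35-fold difference (log2 fold change -2.88 ± 0.31, SE, adjusted p = 0.000285, edgeR). The other 3 that fell, named after their values were seen, were the ESCRT-III subunits CHMP2B and CHMP4B and the ATPase VPS4B, at log2 fold changes of -0.29, -0.26 and -0.32, which passed in 4, 1 and 2 of the 6 fits with a library left out. Without A375RIPK4.KO 2, 7 genes of this list passed, 1 of them higher, beside 19.77% of all genes tested. Without A375neg 1, A375neg 2, A375neg 3 and A375RIPK4.KO 3 the numbers were 2, 1, 2 and 1. In the same order, 10.66%, 10.29%, 11.12% and 11.61% of all genes tested passed. AHNAK, a giant scaffold bound by ANXA2 with S100A10, had 18429, 18243 and 18765 counts against 17919, 12738 and 16383, with A375RIPK4.KO 2 the lowest, and a log2 fold change of -0.10 ± 0.12 (SE, adjusted p = 0.637). Without that library the value was 0.04. PDCD6, the partner of ANXA11, had 1911, 2032 and 1810 counts against 1522, 1847 and 1679 (log2 fold change -0.05 ± 0.08, SE, adjusted p = 0.682).

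Caveolae are membrane pits, and a list of their genes was set beside the annexins. Of their 9 listed genes 7 were tested, and 0 passed with edgeR, beside 16.64% of all genes tested. Beside 4333 of all 14443 genes tested, 1 of the 7 had an unadjusted p under 0.05. This was CAV1, the main coat protein, at a log2 fold change of 0.21 ± 0.06 (SE, adjusted p = 0.0543). CAV1 passed with DESeq2 (adjusted p = 0.0141), and 1 gene of this list, CAV1, also passed in edgeR among genes whose mean count reached 50 and with the trend on gene length removed. Without A375RIPK4.KO 2, 2 genes passed, CAV1 higher and CAVIN3 lower, the latter at an adjusted p of 0.0112. The share of all genes tested that passed was 17.98% with a mean of at least 50 counts, 20.17% with the trend removed and 19.77% without A375RIPK4.KO 2.

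Annexins need phosphatidylserine on the membrane face they bind. Of the 20 genes listed for its exposure and binding, 14 were tested, of which 2 rose and 1 fell, with a median log2 fold change of 0.13. These counts lie near the 8.4% higher and 8.24% lower over all genes tested. GAS6, a secreted bridge between phosphatidylserine and the TAM receptors, had 160, 183 and 149 counts in A375neg and 250, 304 and 275 counts in A375RIPK4.KO. It was 1.85-fold higher (log2 fold change 0.89 ± 0.14, SE, adjusted p = 0.00218, edgeR) and passed in 6 of 6 fits with a library left out. ATP8A2 (0.57 ± 0.16, SE) and ATP8B2 (-0.39 ± 0.08, SE), lipid-moving P4-ATPases named after their values were seen, were the other two. With a library left out ATP8B2 passed in 5 of 6 fits and was lost without A375neg 1. ATP8A2 passed in 1, without A375RIPK4.KO 2, with an adjusted p of up to 0.114 in the rest, and it was lost with no filter on low counts (adjusted p = 0.0534). With the trend on gene length removed, 6 genes of this list passed, 5 of them higher, and the number was 1 without A375neg 1 and 5 without A375RIPK4.KO 2. In these settings 20.17%, 10.66% and 19.77% of all genes tested passed.

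Of the 7 receptors and effectors listed, 4 were tested, and RASA1, the Ras regulator that ANXA6 binds, fell. Over all genes tested, 8.24% fell. RASA1 had 1869, 2127 and 2138 counts in A375neg and 1502, 1261 and 1536 counts in A375RIPK4.KO (log2 fold change -0.37 ± 0.09, SE, adjusted p = 0.0172, edgeR). It was named after its values were seen and did not pass without A375neg 2 or A375neg 3. PRKCA, also bound by ANXA6, had a log2 fold change of 0.18 ± 0.09 (SE, adjusted p = 0.223). It passed as higher without A375RIPK4.KO 2 (adjusted p = 0.00958) and with the trend on gene length removed, so that 2 genes of this list passed in each case. In these settings 19.77% and 20.17% of all genes tested passed. The formyl peptide receptor FPR1 had 0 to 2 counts, and FPR2 and FPR3 are not listed.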

How the data were processed

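RNA-seq was analysed for 6 libraries of A375 cells (poly(A)-enriched, strand-specific, read as pairs of 150 bases). The authors deposited raw counts per gene in 1 table, made from reads without normalization. The submitters' processing notes name cutadapt, FastQC, HISAT2, HTSeq, DESeq2 and GRCh38.p13, and their settings are not given in the sources used here. The table also holds 6 columns of scaled counts and the authors' fold changes and p-values, none of which were used.

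The comparison used edgeR 4.0.16 under R 4.3.3, with TMM scaling, the filterByExpr filter, the quasi-likelihood test and p-values adjusted by Benjamini-Hochberg over 14443 genes. Normalized counts are raw counts divided by the TMM-scaled library size relative to the mean. The SE of a log2 fold change was obtained from its F statistic. The prior count of log2 CPM was 2. Levels between genes were CPM per kilobase of the principal transcript in GENCODE 29, since the table gives 1 exon per gene. Its gene symbols matched GENCODE for 16282 genes (78.1%), and the exon overlapped the matched gene for 95.5%. Positions and promoter sequences are from RefSeq, found for 9 of the 10 members. Summed levels, shares and ratios were compared by two-sided exact permutation tests over libraries. Limits from 3 counts cover counting error only. The steps were tested on simulated counts. Python 3.11.15 with matplotlib 3.10.9 drew the figures.

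Alternatives were DESeq2 1.42.0, edgeR with the size factors of DESeq2, all genes unfiltered, genes whose mean count reached 50, a block for the replicate number, removal of the trend on gene length, near-identical copies summed, each library left out, and other lengths. The members and the gene lists were chosen with earlier results of these data known, and ANXA3 and ANXA6 stand in lists that the study drew from these samples. Named genes are all members, the other annexin rows, RIPK4, up to 4 partner genes per list with the largest changes past the test and 1.5-fold, and S100A10, S100A11, S100A6, AHNAK and PDCD6.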

Additional observations from a re-analysis of the deposited data

How the results depend on the processing

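The number of annexins past the test was 4 with all 6 libraries and 2 to 3 with 1 library left out. The number also past 1.5-fold was 2, and 1 to 2 with 1 library left out, and it was 1 among genes whose mean count reached 50, a test that did not include ANXA3. Of the 62 partner genes tested 17 passed with all libraries, beside 16.64% of all genes tested. With 1 library left out 8 to 24 partner genes passed, beside 10.29% to 19.77% of all genes tested. The summed annexin level differed by 0.18 on the log2 scale and by 0.08 to 0.19 with the other lengths, size factors or no length, and by 0.10 to 0.24 with 1 library left out. ANXA1 and ANXA5, which did not pass the test, changed sign around 0, at -0.086 to 0.066 and -0.056 to 0.064 with 1 library left out, where ANXA11 was at -0.092 to 0.00, and ANXA5 was at -0.0025 with the trend on gene length removed. AHNAK ranged from -0.239 to 0.038. The cause of these shifts was not tested. With the replicate number as a block 4 annexins passed, 2 of them also past 1.5-fold, and 19 partner genes, CAV1 among them but not ATP8A2 or S100A1. In that fit 17.65% of all genes tested passed. Deviations of libraries that share a number correlated at 0.0823, 0.0357 and -0.0119, and those with unlike numbers at -0.0956 to 0.0674. As these ranges are alike, the values cannot tell whether equal numbers pair the samples, and the labels do not say. An exon length from RefSeq or from the table was not run as an alternative, as neither source used here gives the exons of a whole transcript. ANXA8 and ANXA10 had too few counts for the filter, and the size of change detectable at their depth was not tested.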
